A study of Danio rerio with 18 samples.

Results

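The genes described here encode the proteins of the cytosolic ribosome of the zebrafish. They were taken by name: all genes whose name starts with rpl or rps followed by a digit, together with rpsa, rplp0, rplp1 and rplp2, without the S6 kinase genes (names starting rps6k) and rps27l, and with at least 180 counts summed over all libraries. This gave 80 of 32520 genes, of which 33 were assigned by name to the small subunit and 46 to the large subunit. Paralogues such as rpl7l1 were assigned in the same way, and whether their proteins sit in the mature ribosome was not examined. The remaining gene, rps19bp1, encodes a protein that binds Rps19 and is not itself part of the ribosome, and it enters neither subunit here. At the limit, rpl9 (432 counts) and rpl22l1 (633 counts) lay just inside, and rps8b (39 counts) and rpl26 (1 count) just outside.

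The ribosome reads mRNA on its small subunit, which holds the decoding centre, and joins amino acids on its large subunit, which holds the peptidyl transferase centre and the acidic stalk that recruits elongation factors. Most of its proteins are needed in equal numbers, and in vertebrates their mRNAs share a terminal oligopyrimidine tract (TOP) at the start, through which mTORC1 and LARP1 control their translation and stability. The early fish embryo starts with ribosomes and ribosomal protein mRNAs laid down in the egg, and it begins to add its own transcripts at zygotic genome activation.

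RNA came from whole embryos at 4 h post-fertilisation that carried RfxCas13d, an RNA-cutting nuclease of the CRISPR family that is steered by a guide RNA (gRNA). The question put to these embryos was whether predictions of gRNA activity made in other systems hold in vivo, with 200 gRNAs split into 8 cocktails of 25 at a stated 10 pg per embryo. Cocktails 1 to 8 and the RfxCas13d control had 2 libraries each, 18 in all, and every group shares the nuclease. No source used here gives the matched genes, the strain, what else the control embryos received, or whether the dose is per gRNA or per cocktail. Nothing states that replicates are separate clutches, so a p-value reflects the spread between these libraries alone, which may be technical. They also place the stage under a tag for cell line and the knockdown under one for cell type. In such bulk RNA, fewer cells of a type and less RNA per cell cannot be told apart.

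Gene counts per library ran from 2544027 to 4019311 in the cocktails and were 4864939 and 3684672 in the control. Reads that mapped nowhere made up 21.6% to 47.3% of a cocktail library and 10.1% and 10.8% of the control libraries, so all 16 cocktail libraries lay above both controls. No tested marker of the embryo's layers was at 0 in every library, and krt4, krt18a.1, cyt1, cldne, anxa1c, mttp, slc26a1, tbx16 and vent were at 0 in at least 1 cocktail library. Over all genes tested, 13.6% were called lower and 15.1% higher in the mean of the cocktails against the control (edgeR's quasi-likelihood test). Of 10 genes of the enveloping layer, the outermost epithelium, 7 were lower and 0 higher in the cocktails, among them anxa1c and evpla. Their summed level was 30.5 to 3427 CPM (counts scaled to a common total of gene counts, corrected by the TMM factor of the library) in the cocktails and 7102 and 6677 CPM in the control. Of 5 tested genes of the yolk syncytial layer 4 were lower, with mttp and gata6 at the head (summed 3.24 to 885 CPM in the cocktails, 992 and 964 CPM in the control). Of 8 blastoderm and early zygotic genes 1, pou5f3, was called lower (summed over the list 1884 to 5006 CPM in the cocktails, 6518 and 6525 CPM in the control). The uncalled tbx16, sox3, vox and vent also had all 16 cocktail libraries below both controls (log2 fold change -2.15, -1.69, -1.48 and -1.30). Their SE were wide, from 0.61 to 0.78, and aplnrb, nanog and ndr1 overlapped the controls. These uncalled genes were named after their values were seen. Of 10 oocyte genes 7 were higher, led by buc and tdrd6 (1805 to 3848 CPM in the cocktails, 1226 and 1230 CPM in the control). For the enveloping layer, the yolk syncytial layer and the blastoderm the lowest sums were those of 1 library, Cocktail 1 replicate 1. Between the replicates of Cocktail 1 these lists differed by medians of -3.40, -4.22 and -5.36 (log2 CPM, replicate 1 minus replicate 2). In the other cocktails the medians lay between -0.81 and 0.28. The part of the shifts in these markers, and of the unmapped reads, in the results on ribosomal protein genes was not tested.

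Each ribosomal protein gene had between 10 and 1197 counts in a library, with a median of 137, and all 80 passed the filter on low counts. Levels were compared between genes on the deposited TPM, a transcript level scaled for gene length and library total. In the control, the median small subunit gene had 165 TPM (quartiles 115 and 197) and the median large subunit gene 130 TPM (99.2 and 190), where the median of all genes tested was 15.995 TPM. The ranges of the subunits overlapped.

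The highest small subunit gene was rps20, a protein of the head domain, with 1117 and 1270 TPM in the control libraries. It was followed by rps28 (466 and 350 TPM) and rps12 (386 and 373 TPM). The lowest were rps3, which lines the mRNA entry channel, with 21.2 and 16.5 TPM, and rps26l with 20.1 and 28.2 TPM. In the large subunit the leading genes lay closer together. These were rpl32 (514 and 485 TPM), rpl3, a protein that reaches toward the peptidyl transferase centre (347 and 319 TPM), and rpl7l1, a paralogue of rpl7 (322 and 339 TPM), of which rpl3 and rpl7l1 overlapped. At the low end stood rpl35a (16.03 and 14.2 TPM) and rpl14 (28.0 and 19.6 TPM). The gene length implied by counts and TPM was long for rps3 and rpl35a, at 1.67 and 1.62 of the median gene. Their low rank in TPM depends on this length. In CPM, which is not scaled for length, the control libraries had 49.3 and 37.1 for rps3 and 35.0 and 30.1 for rpl35a. For rpl9 they had 9.22 and 8.13 CPM but 133 and 125 TPM, so its low CPM was not a low level on TPM. Whether reads of rpl9 were left out of its counts was not tested.

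Together the 80 genes made up 0.339% to 0.588% of the gene counts in the cocktail libraries, with a median of 0.419%, and 0.504% and 0.479% in the control libraries. Of the 16 cocktail libraries, 13 lay below both controls and 3 above both. The lowest was Cocktail 5 replicate 2 and the highest Cocktail 3 replicate 2. The other libraries above both controls were Cocktail 1 replicate 2 (0.534%) and Cocktail 7 replicate 1 (0.543%).

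The typical gene was read as the median over the 80 genes of the difference in log2 CPM from the mean of the controls. It was -0.84 and 0.08 in the libraries of Cocktail 1, -0.39 and -0.46 in Cocktail 2, -0.64 and 0.20 in Cocktail 3, -0.48 and -0.72 in Cocktail 4, -0.40 and -0.79 in Cocktail 5, -0.37 and -0.42 in Cocktail 6, 0.02 and -0.35 in Cocktail 7 and -0.46 and -0.47 in Cocktail 8, against 0.04 and -0.04 in the control. Both libraries were clearly below the control in Cocktails 2, 4, 5, 6 and 8, and the libraries of Cocktails 1, 3 and 7 fell on different sides of 0.

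**Figure D1:**
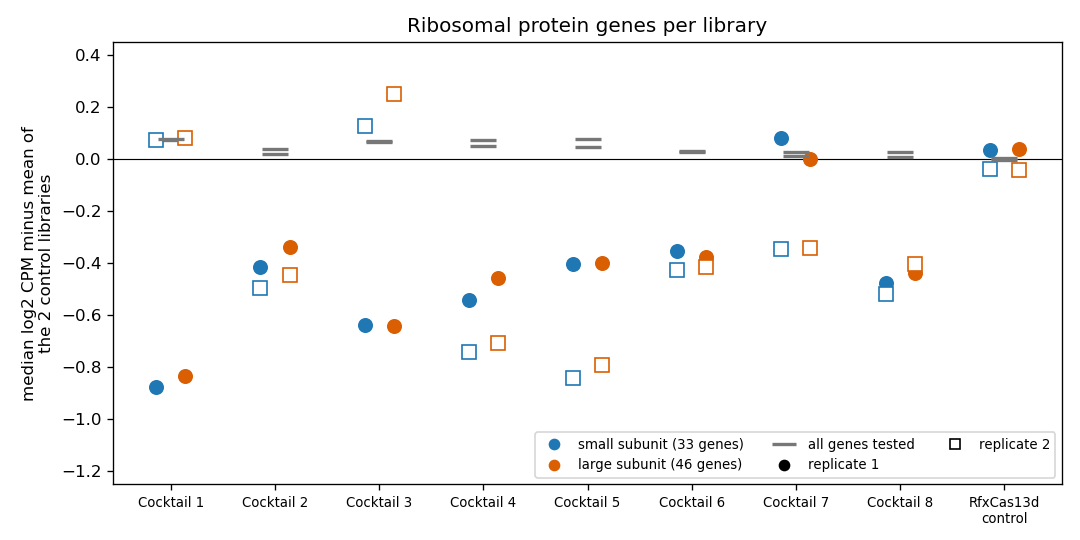
Median log2 CPM of the 33 small subunit genes (blue) and 46 large subunit genes (orange) in each library, minus the mean of the 2 control libraries, for Cocktails 1 to 8 and the RfxCas13d control; filled circles are replicate 1, open squares replicate 2, and grey bars the median of all genes tested. Small and large subunit points of a library lie close together, while the replicates of Cocktails 1 and 3 lie far apart.

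The mean of the 8 cocktails was set against the control with edgeR's quasi-likelihood test on counts, with Benjamini-Hochberg adjustment over all 14514 genes tested, and a gene was called at an adjusted p under 0.05. Ribosomal protein genes were on the low side in the cocktails. Of the 80 genes, 13 were called lower, 6 of the small and 7 of the large subunit, which is close to the background of 13.6% of all genes called lower. None was called higher, where the background was 15.1%. With no adjustment, edgeR gave 22 lower and 0 higher at p under 0.05, where 39.5% of all genes passed in either direction. The calls of DESeq2 were 16 lower and 0 higher, where it called 15% of all genes lower. Those of limma on log2(TPM + 1) were 9 lower and 0 higher, where 6.09% of all genes were called lower.

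By edgeR the shift was small in the typical gene and shared by nearly all. The fold change was below 0 on the log2 scale in 76 of the 80 genes, where 48.7% of all genes tested were below 0. It was below 0 in 80 genes by DESeq2 and with RLE size factors, and in 67 by limma on log2(TPM + 1). Without control replicates 1 and 2 it was below 0 in 77 and 71 genes. The TMM factors were lower in both controls than in every cocktail library, which raises the CPM of the controls. The size of the shift thus depends in part on this scaling. The median log2 fold change was -0.40 for the small subunit (quartiles -0.50 and -0.31) and -0.38 for the large subunit (-0.54 and -0.25), against 0.03 for all genes tested. Fewer calls were made without a control library, over all genes as well: 1 gene, rps7, was called without control replicate 1, where 5.65% of all genes were called lower, and 4 genes (rps7, rpl5b, rps15a and rplp0) without control replicate 2 (5.73% of all genes). The count was 25 without Cocktail 1 replicate 2 (17.1% of all genes) and 20 without Cocktail 3 replicate 2 (14.4%). With Cocktails 1 and 3 both left out, a choice made after seeing the data, 35 genes were called lower, all 13 among them, and 80 of 80 were below 0, where 18.1% of all genes were called lower.

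The largest change was that of rps7, a small subunit protein that in mammals also binds the p53 regulator Mdm2. It had 14.9 and 33.3 CPM in Cocktail 1, 34.0 and 38.2 CPM in Cocktail 2, 18.9 and 29.9 CPM in Cocktail 3, 26.4 and 20.1 CPM in Cocktail 4, 35.3 and 31.4 CPM in Cocktail 5, 38.6 and 32.0 CPM in Cocktail 6, 36.9 and 38.5 CPM in Cocktail 7 and 30.5 and 26.5 CPM in Cocktail 8, against 71.6 and 70.5 CPM in the control. Every cocktail library was thus far below both controls, with a wide gap between the groups. The log2 fold change was -1.26 ± 0.23 (SE; edgeR adjusted p = 0.000262), and it was the only ribosomal protein gene called without either control library.

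Next in the small subunit came rps6, the classical substrate of S6 kinase. Its cocktail libraries lay between 19.5 and 79.8 CPM with a median of 50.8, and the controls had 97.7 and 100.01 CPM (log2 fold change -0.98 ± 0.24, edgeR adjusted p = 0.00383). The groups did not overlap, and the edgeR adjusted p was 0.0577 without control replicate 1 and 0.0636 without replicate 2.

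The gene of another small subunit protein, rps15a, ran from 9.59 to 30.6 CPM in the cocktails with a median of 21.6, against 47.5 and 30.4 CPM in the control. Here 1 cocktail library lay between the controls, which themselves differed widely (log2 fold change -0.97 ± 0.29, edgeR adjusted p = 0.0148, and 0.386 without control replicate 1). The other called genes of this subunit were rps21 (-0.82 ± 0.26), rps13 (-0.76 ± 0.23) and rps23, a protein of the decoding centre (-0.73 ± 0.27), with edgeR adjusted p of 0.0211, 0.0186 and 0.0481. In the cocktails rps21 had 18.5 to 44.0 CPM with a median of 27.9, against 52.5 and 44.3 CPM in the control. For rps13 the cocktails had 13.5 to 41.7 CPM with a median of 28.1 and the control 46.1 and 46.7 CPM, and for rps23 they had 12.5 to 29.2 CPM with a median of 20.3 and the control 37.6 and 30.7 CPM. In all of these the 16 cocktail libraries lay below both controls, although the highest of rps21 came within 1 CPM of a control. Their calls were lost when a control library was taken out. For rps23, 14 of the 27 alternatives lost the call, of which 10 left out a cocktail library.

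In the large subunit, rplp0 and rplp1 of the stalk were among the 6 called genes with the largest changes. The stalk base rplp0 had 40.3 to 97.2 CPM in the cocktails with a median of 68.8, against 129 and 124 CPM in the control, and the acidic stalk protein rplp1 had 22.4 to 52.8 CPM with a median of 37.4, against 61.7 and 62.1 CPM. Both lay below the controls in all 16 cocktail libraries (log2 fold change -0.87 ± 0.21 and -0.75 ± 0.21, edgeR adjusted p = 0.00313 and 0.00913). Taking out control replicate 1 lost the call of rplp0 (edgeR adjusted p = 0.0671), and taking out control replicate 1 or 2 lost that of rplp1 (0.106 and 0.104). The third stalk gene, rplp2, had 8.16 to 20.5 CPM in the cocktails and 16.6 and 14.2 CPM in the control, so the groups overlapped, and it was not called (-0.32 ± 0.35, edgeR adjusted p = 0.533).

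The largest change of this subunit was that of rpl7, with 23.5 to 67.3 CPM in the cocktails, a median of 36.2, and 81.6 and 66.6 CPM in the control (log2 fold change -0.91 ± 0.26, edgeR adjusted p = 0.0121). In 15 of the 16 cocktail libraries it lay below both controls, the exception being Cocktail 3 replicate 2, and the call was lost without control replicate 1 (0.207) or replicate 2 (0.0589). Also called were rpl5b, which with Rpl11 carries the 5S rRNA into the subunit (-0.67 ± 0.20), rpl30 (-0.70 ± 0.26), rpl28 (-0.67 ± 0.25) and rpl15 (-0.64 ± 0.23). Of these, rpl5b had 42.7 to 90.2 CPM in the cocktails with a median of 58.5, against 109.9 and 79.2 CPM in the control, so that Cocktail 7 replicate 1 lay between the controls. For rpl30 the cocktails had 20.2 to 46.3 CPM with a median of 30.7 and the control 57.8 and 42.8 CPM, and for rpl28 14.9 to 34.5 CPM with a median of 19.1 and 31.8 and 33.4 CPM. In each of these 15 cocktail libraries lay below both controls. For rpl15 all 16 did, with 34.7 to 77.8 CPM in the cocktails, a median of 56.3, and 87.3 and 84.3 CPM in the control. The edgeR adjusted p of rpl5b was 0.0141 (0.390 without control replicate 1), and those of rpl30, rpl28 and rpl15 were 0.0479, 0.0498 and 0.0440, and 13, 17 and 13 of the 27 alternatives lost these calls. The last of these, rpl15, stands outside the rule for naming genes and was named after its values were seen.

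The most abundant genes were not called. With 88.3 to 228 CPM in the cocktails and a median of 136, rps20 had 189 and 204 CPM in the control (log2 fold change -0.46 ± 0.21, edgeR adjusted p = 0.107). The large subunit gene rpl3 had 126 to 276 CPM in the cocktails with a median of 202, against 276 and 246 CPM in the control (-0.40 ± 0.17, edgeR adjusted p = 0.0855), and rpl32 had 74.0 to 180 CPM with a median of 102, against 155 and 145 CPM (-0.44 ± 0.24, edgeR adjusted p = 0.194). Most cocktail libraries lay below the controls for these genes, and the groups overlapped.

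Other genes stayed near the control level. In the small subunit, rps27.2 had 31.5 to 75.1 CPM in the cocktails against 41.2 and 51.8 CPM in the control (log2 fold change 0.03 ± 0.28), and rps25 had 9.29 to 26.3 CPM against 16.6 and 20.5 CPM (-0.11 ± 0.30). In the large subunit, rpl7l1 had 170 to 296 CPM against 211 and 217 CPM (-0.00 ± 0.17), and rpl19 had 107 to 229 CPM against 140 and 132 CPM (0.02 ± 0.18). The cocktail libraries lay on both sides of the controls in all of these. The sign of each turned under some of the scalings and left-out libraries, as did that of rpl24 (0.03 ± 0.30). The binding protein gene rps19bp1, known as AROS in mammals, had 60.5 to 150 CPM in the cocktails against 112 and 87.4 CPM in the control (-0.32 ± 0.21, edgeR adjusted p = 0.286).

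**Figure D2:**
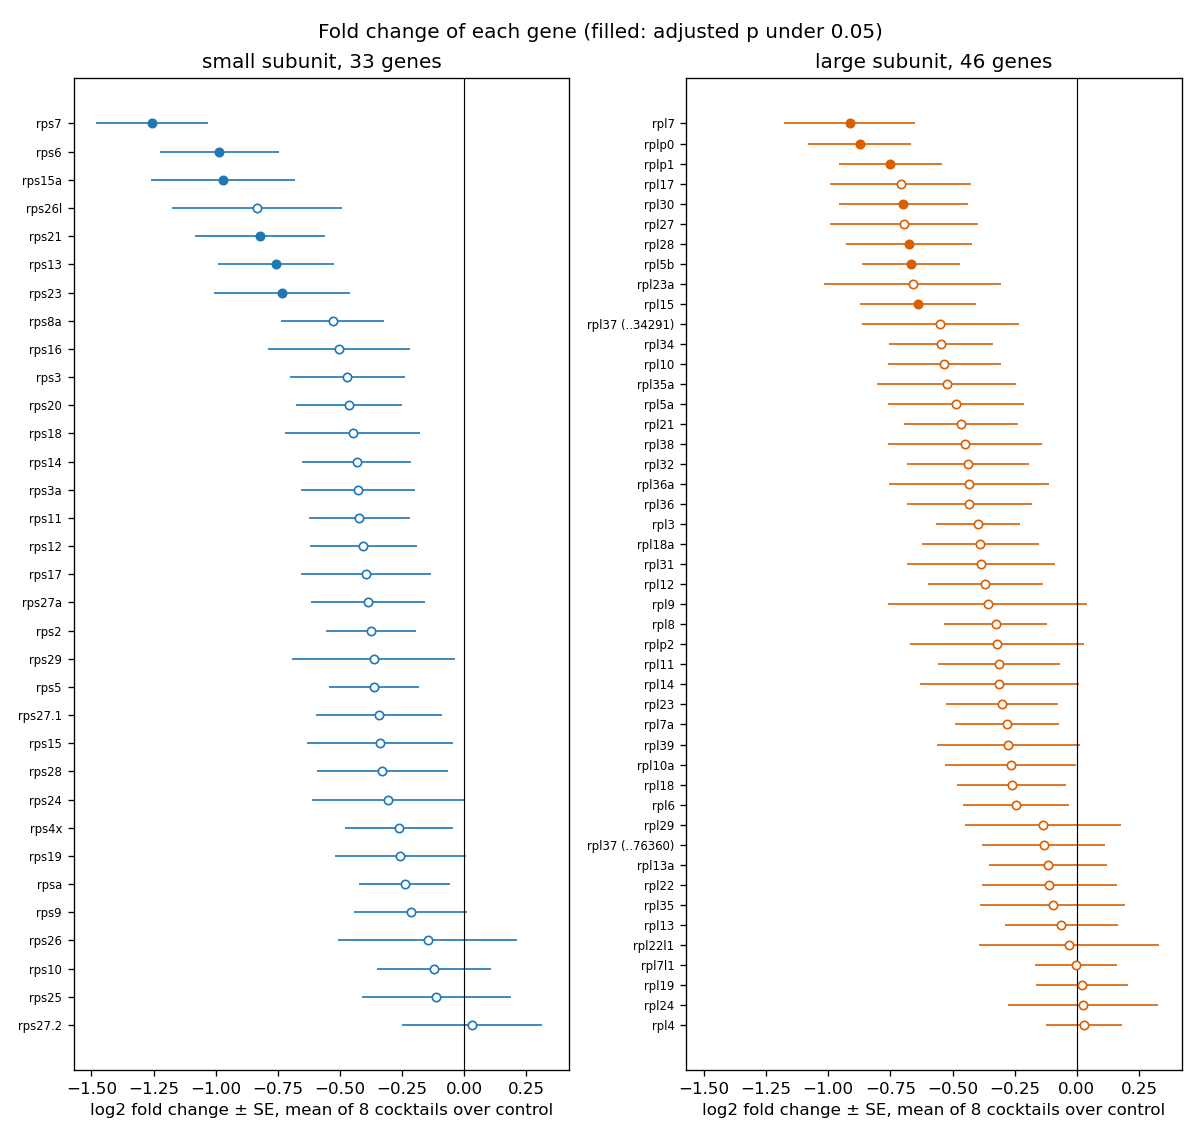
Log2 fold change (mean of the 8 cocktails over the RfxCas13d control, from edgeR, bars are ± SE) of each of the 33 small subunit genes (left) and 46 large subunit genes (right), ordered by size; filled points passed an adjusted p under 0.05. Nearly all points lie left of 0, with rps7 farthest at -1.26 in the small subunit and rpl7 at -0.91 in the large subunit.

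Counted without a model, 13 genes had all 16 cocktail libraries below both controls, 6 of the small and 7 of the large subunit, where 12.3% of all genes tested did so. None had all above, where 11.9% did. The genes below were rps6, rps7, rps8a, rps13, rps21, rps23, rpl5a, rpl10, rpl15, rpl27, rpl34, rplp0 and rplp1, which were named after their values were seen. For rpl10, which lies near the peptidyl transferase centre, the gap was narrow, with up to 76.1 CPM in the cocktails against 76.3 and 76.2 CPM in the control.

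Each gene's share of the summed CPM of the 80 genes was then taken, which removes the movement that all of them have in common in a library. Of the 80 genes, 6 had a lower share than both controls in all 16 cocktail libraries and 2 a higher one. On the same scale 4.57% and 17.3% of all genes tested lay below and above. These percentages are no like background, since the sum of the 80 genes was itself mostly lower in the cocktails. It was 3125 to 6109 CPM there and 5651 and 5316 CPM in the control, and dividing by it moves other genes upward. The genes with a lower share were rps6, rps7, rps15a, rps21, rpl7 and rplp0. Here rps7 made up 0.476% to 0.948% in the cocktails with a median of 0.700%, and 1.27% and 1.33% in the control. The 2 genes with a higher share were rpl19, which reaches into both subunits through a bridge between them, and rpl13. The share of rpl19 was 2.56% to 4.17% in the cocktails with a median of 3.27%, and 2.47% and 2.48% in the control. That of rpl13 was 1.13% to 1.63% in the cocktails and 1.11% and 1.01% in the control.

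**Figure D3:**
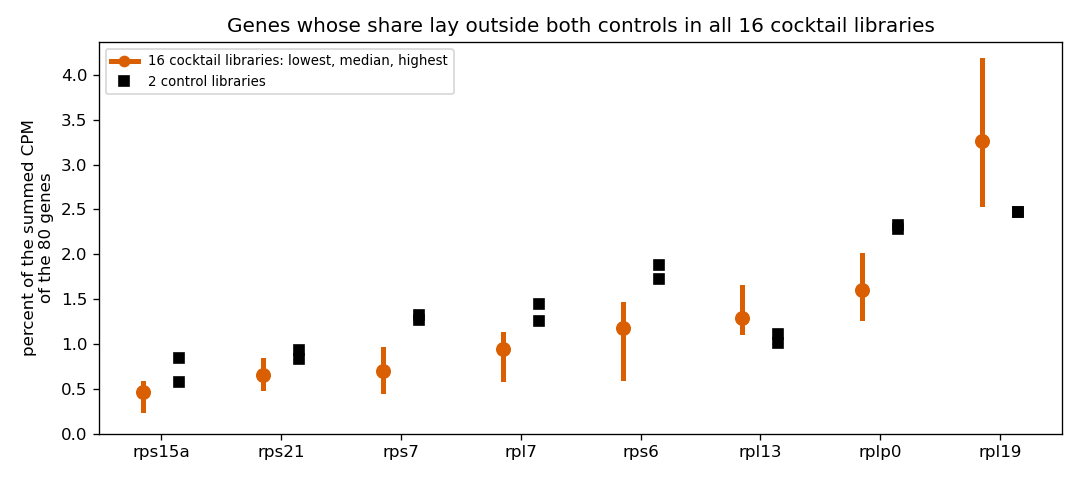
Share of 8 ribosomal protein genes in the summed CPM of the 80 genes, in percent, as the lowest, median and highest of the 16 cocktail libraries (orange, left) and the 2 control libraries (black squares, right). The genes shown are those whose cocktail libraries lay all below (6 genes) or all above (rpl13 and rpl19) both controls, so the gap between the groups was used to choose them.

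The balance of the subunits was read as the ratio of their summed counts. Small over large subunit counts gave 0.588 to 0.733 in the cocktail libraries with a median of 0.667, and 0.715 and 0.714 in the control libraries. In 15 of the 16 cocktail libraries it was below both controls, the exception being Cocktail 7 replicate 1. Without rps20, the highest small subunit gene, it was 0.532 to 0.671 in the cocktails and 0.657 and 0.647 in the control, again with 15 below. On TPM it was 0.787 to 0.960 in the cocktails and 0.925 and 0.946 in the control, with 14 below. The lowest ratio on each of these scales was that of Cocktail 1 replicate 1. In such sums the genes with most counts weigh most, in the large subunit rpl4 (15832 counts) and rpl7l1 (12824 counts). The share of rpl4 in the summed CPM of all ribosomal protein genes had a median of 6.28% in the cocktails, against 4.48% and 5.00% in the control. For rpl7l1 it was 5.06%, against 3.73% and 4.09%. The ratio was not taken without these genes, so how far it rests on them was not tested. The medians of the genes' fold changes differed less between the subunits, by -0.02 (small minus large, log2), and by between -0.12 in Cocktail 1 and 0.04 in Cocktail 7.

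Where the rule took paralogues, their TPM ratio showed whether a pair moved together. The ratio of rpl7l1 to rpl7 was 2.99 to 6.40 in the cocktail libraries with a median of 4.22, and 2.08 and 2.66 in the control, and all 16 cocktail libraries lay above both controls. The ratio of rps26l to rps26 was 0.122 to 0.349 in the cocktails and 0.267 and 0.432 in the control, and that of rps27.1 to rps27.2 was 0.564 to 1.02 in the cocktails and 1.10 and 0.932 in the control. In each of these pairs 13 cocktail libraries lay below both controls, so the groups overlapped. For rpl5a over rpl5b, rpl22l1 over rpl22 and the 2 identifiers that both bear the name rpl37, cocktail libraries lay on both sides of the controls. How reads shared by near-identical copies were counted is not given in the sources used here, which leaves the split within a pair uncertain.

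Each cocktail was also compared with the control, with the same 2 control libraries in all 8 comparisons. Calls of lower genes numbered 5 in Cocktail 1, 2 in Cocktail 2, 1 in Cocktail 3, 11 in Cocktail 4, 5 in Cocktail 5, 0 in Cocktails 6 and 7 and 2 in Cocktail 8. The background of all genes called lower was 10.7%, 4.02%, 10.7%, 9.93%, 5.8%, 1.65%, 2.46% and 3.5% in Cocktails 1 to 8. No ribosomal protein gene was called higher in any cocktail by edgeR, DESeq2 or limma on log2(TPM + 1), where edgeR called 15.2%, 7.56%, 14%, 13.8%, 11.1%, 5.55%, 5.5% and 7.67% of all genes higher. With no adjustment, edgeR gave 15, 11, 5, 28, 25, 9, 4 and 14 genes at p under 0.05 in Cocktails 1 to 8, every one of them lower, where 37.8%, 26.1%, 36.8%, 36%, 30.4%, 21%, 23.2% and 26.2% of all genes passed in either direction. In Cocktails 6 and 7, where edgeR called none, DESeq2 called 3 and 0 and limma 0 and 0, and the shares of all genes by these tools were not taken.

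The medians of the 80 genes were -0.30, -0.43, -0.19, -0.60, -0.60, -0.42, -0.14 and -0.44 in Cocktails 1 to 8 (log2 fold change), and 70, 76, 56, 76, 77, 78, 57 and 78 of the genes were below 0. Of all genes tested, 47.2%, 47.9%, 46.5%, 47.4%, 47.2%, 48.9%, 48.6% and 48.9% were below 0. Cocktails 4 and 5 were lowest and Cocktails 3 and 7 nearest to the control. The 26 calls fell on 13 genes. In 5 cocktails, numbers 1, 3, 4, 5 and 8, rps7 was called, and it had the largest change among the calls of Cocktails 1 (-1.57 ± 0.34), 3 (-1.55 ± 0.34), 4 (-1.61 ± 0.35) and 8 (-1.32 ± 0.34), with edgeR adjusted p of 0.00201, 0.00239, 0.00194 and 0.0147. In Cocktail 2 the largest was rps6 (-1.09 ± 0.35, edgeR adjusted p = 0.0496), with 49.2 and 43.7 CPM against 97.7 and 100.01 CPM in the control. In Cocktail 5 it was rps13 (-1.11 ± 0.34, edgeR adjusted p = 0.0271), with 24.2 and 18.7 CPM against 46.1 and 46.7 CPM. Called in 3 cocktails each were rps6, rps13, rplp0 and rplp1. These genes were named by their calls, after their values were seen.

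These counts moved with single libraries. The shares of all genes called in these fits were not taken, so the moves cannot be read as particular to ribosomal protein genes. Without control replicate 1 or 2 they were 2 and 2 in Cocktail 1, 0 and 0 in Cocktail 2, 1 and 2 in Cocktail 4, 0 and 1 in Cocktail 5 and 0 and 0 in Cocktail 8. In Cocktail 1 the count was 1 without its replicate 1 and 27 without its replicate 2, and in Cocktail 3 it was 9 without its replicate 2. Without Cocktail 3 replicate 1, rpl19 was called higher in Cocktail 3 (log2 fold change 0.75, edgeR adjusted p = 0.018). Without replicate 1 or 2 of Cocktail 4 its count was 2 and 1, and it was 0 without either library of Cocktails 2, 5 and 8 in their own comparisons. Leaving out either library of Cocktail 1 raised the counts to 20 to 21 in Cocktail 4, 13 in Cocktail 5, 5 in Cocktails 2 and 3, 4 in Cocktail 6, 4 to 6 in Cocktail 8 and 1 in Cocktail 7. Leaving out either library of Cocktail 3 gave 18 to 19, 9, 2 to 3 and 4 in Cocktails 4, 5, 6 and 8. In Cocktail 2 the count was 0 or 1 without any library of Cocktails 4 to 8, and in Cocktail 4 it was 7 without either library of Cocktail 2 or 6.

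Whether the cocktails differed among themselves was tested by comparing the cocktails alone, in the fit of all 18 libraries. The control libraries thus entered the scaling and the estimate of spread, but not the comparison. By the F test of edgeR 0 of the 80 genes differed among the 8 cocktails, where 2.46% of all genes did. With no adjustment, edgeR gave 0 of the 80 genes at p under 0.05, where 15.4% of all genes passed. The wide gaps of these genes between the replicates of Cocktails 1 and 3, given below, enter the spread in this test. A count of 0 thus does not show that the cocktails were alike. The counts of DESeq2 were 0 called and 0 unadjusted, and those of limma on log2(TPM + 1) 0 called and 8 unadjusted. The shares of all genes were not taken for these tools or for the fits below that leave libraries out. Those counts and passes thus cannot be read as particular to ribosomal protein genes. The lowest edgeR adjusted p were those of rpl24 (0.406), rps4x (0.413), rplp1 (0.437), rps20 (0.464) and rpl3 (0.492). Without Cocktail 1 replicate 2, rpl3 passed (edgeR adjusted p = 0.0175), and with Cocktails 1 and 3 both left out rpl3 (0.0194) and rps20 (0.0261) passed. In those 6 cocktails rpl3 ran from 144 CPM in Cocktail 5 replicate 2 to 276 CPM in Cocktail 7 replicate 2, against 276 and 246 CPM in the control, and rps20 from 88.3 CPM in Cocktail 5 replicate 2 to 193 CPM in Cocktail 7 replicate 1, against 189 and 204 CPM. Cocktail 5 was the low end and Cocktail 7 the high end for both.

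The replicates of Cocktails 1 and 3 were set against each other gene by gene, as the difference in log2 CPM between replicate 1 and replicate 2. In both cocktails nearly every ribosomal protein gene was lower in replicate 1. In Cocktail 1 the median difference was -0.96 for the small and -0.85 for the large subunit, and 79 of the 80 genes were lower in replicate 1, where 49.6% of all genes tested were. In Cocktail 3 it was -0.68 for the small and -0.83 for the large subunit, and 80 of the 80 genes were lower in replicate 1, where 49.7% of all genes were. By at least 0.5 on this scale, 70 genes were lower in Cocktail 1 (25.7% of all genes) and 66 in Cocktail 3 (26.8%). On this scale the small subunit lay farther apart in Cocktail 1, and the large subunit lay farther apart in Cocktail 3. With 1 difference per gene and group there is no test of this. With the trend on gene length removed, a choice made after seeing the data, the subunits lay closer together in Cocktail 3. The medians were then -0.23 (small) and -0.25 (large), and -0.69 and -0.62 in Cocktail 1. On TPM most genes were again lower in replicate 1 of Cocktail 3. Those that were not were rpl3 (279 and 243 TPM), rpl5b (99.5 and 86.8 TPM), rpsa (119 and 111 TPM) and rps19bp1 (62.9 and 51.9 TPM). By narrow gaps, rpl28 (78.35 and 77.01 TPM) and rpl5a (29.13 and 29.06 TPM) were also not lower.

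The size of these differences stood apart from the other groups. The median absolute difference of the 80 genes was 0.905 in Cocktail 1 and 0.823 in Cocktail 3, while it lay between 0.165 and 0.397 in the other 7 groups. All genes tested had 0.537 and 0.565 in Cocktails 1 and 3, and 0.267 to 0.381 in the other 7 groups. They too thus differed most in Cocktails 1 and 3. A shared direction, of the other sign, was also seen in Cocktail 5, with a median of 0.34 and 6 genes lower in replicate 1, in Cocktail 7 (0.39 and 12 genes) and in Cocktail 4 (0.20 and 13 genes), where 50.7%, 49.1% and 50% of all genes were lower in replicate 1. In Cocktails 2, 6 and 8 the median was 0.04, 0.05 and 0.03, with 35, 32 and 37 genes lower in replicate 1, where 50.2%, 50.3% and 51.4% of all genes were. In the control the median was 0.08 with 26 genes lower in replicate 1 (48.6% of all genes).

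**Figure D4:**
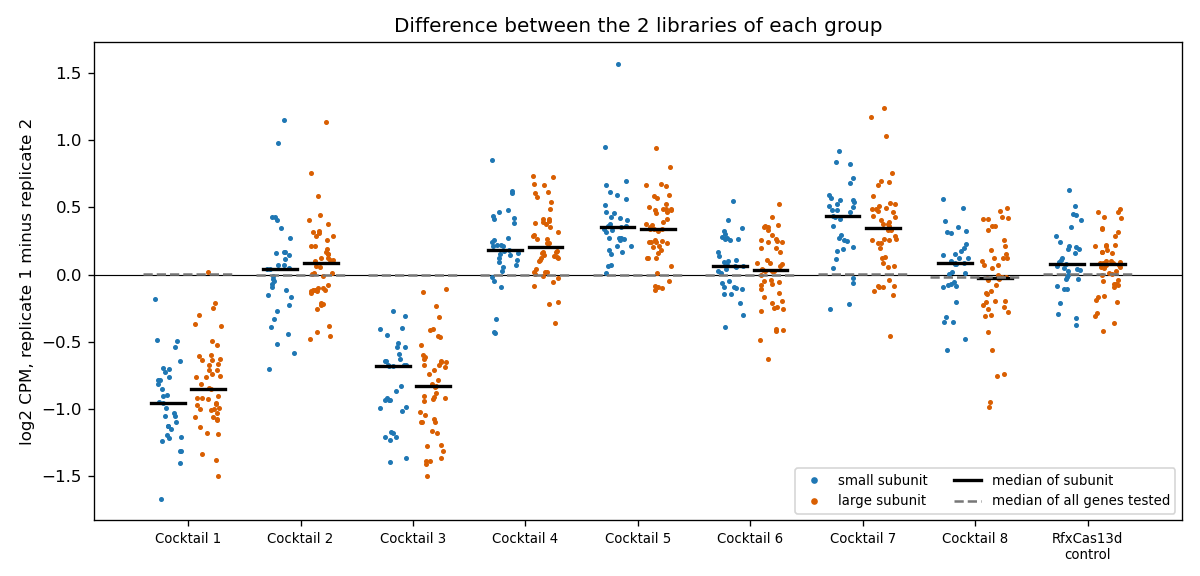
Difference in log2 CPM between replicate 1 and replicate 2 for each small subunit gene (blue) and large subunit gene (orange) in Cocktails 1 to 8 and the RfxCas13d control; black bars are subunit medians and dashed grey lines the median of all genes tested. In Cocktails 1 and 3 almost all points lie below 0, with medians from -0.96 to -0.68, and in the other groups the medians lie between about 0 and 0.43.

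Among single genes of Cocktail 1, rps29, a zinc-binding protein of the small subunit, had the widest gap, with 10.5 and 34.9 CPM in replicates 1 and 2 against 24.7 and 23.8 CPM in the control. The libraries thus lay on either side of the control. It was followed in the small subunit by rps6 (19.5 and 52.4 CPM) and rps28 (38.4 and 96.6 CPM). In the large subunit the widest were rpl23a, which lies at the exit of the peptide tunnel (9.19 and 27.18 CPM in Cocktail 1, against 33.6 and 29.5 CPM in the control), rpl7 (23.5 and 62.4 CPM) and the rpl37 gene ENSDARG00000034291 (12.4 and 32.3 CPM). The closest were rps3 (26.7 and 30.4 CPM) and rpl22 (19.7 and 19.5 CPM), and rpl22 was the 1 gene not lower in replicate 1.

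In Cocktail 3 the widest gaps of the small subunit were those of rps15a, with 9.59 and 26.3 CPM in replicates 1 and 2 against 47.5 and 30.4 CPM in the control, rps26l (8.52 and 23.0 CPM) and rps16 (21.3 and 50.9 CPM). In the large subunit they were those of rpl29, with 26.1 and 75.2 CPM against 42.2 and 29.8 CPM in the control, rpl23a (13.3 and 36.4 CPM) and rpl36a (12.3 and 33.2 CPM). The rpl37 gene ENSDARG00000034291 tied with rpl36a, with the same counts in both libraries. It and rpl23a were among the widest of their subunit in both cocktails. The closest were rps27a, which is made as a fusion with ubiquitin (42.9 and 51.9 CPM), and rpl3 (190 and 204 CPM).

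Ribosomal protein mRNAs are short, and replicate differences in these cocktails ran with gene length. A relative length could be taken from the ratio of counts to TPM, and 65 of the 80 genes fell in the shortest decile of the genes with such a length. This ratio understates length for genes with many shared reads, so some of the 65 may be placed too short. The other 1258 genes of that decile had a median difference of -0.28 in Cocktail 1 and -0.66 in Cocktail 3, while the longest decile had 0.30 and 0.59. The 65 ribosomal protein genes had -0.92 in Cocktail 1 and -0.83 in Cocktail 3. With the trend on length removed from each library, a choice made after seeing the data, the median over all 80 genes was -0.64 in Cocktail 1, with 78 lower in replicate 1, and -0.24 in Cocktail 3, with 63 lower. The fold change of the other genes between the mean of the cocktails and the control also ran with length, but not evenly: its median was 0.00 in the shortest decile, 0.14 in the next and -0.11 in the longest. In Cocktail 1 it was 0.09 in the shortest and -0.19 in the longest decile, and in Cocktail 3 it was 0.24 and -0.28. With the length trend removed, 24 ribosomal protein genes were called lower against the control, the 13 among them, where 20.4% of all genes were.

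**Figure D5:**
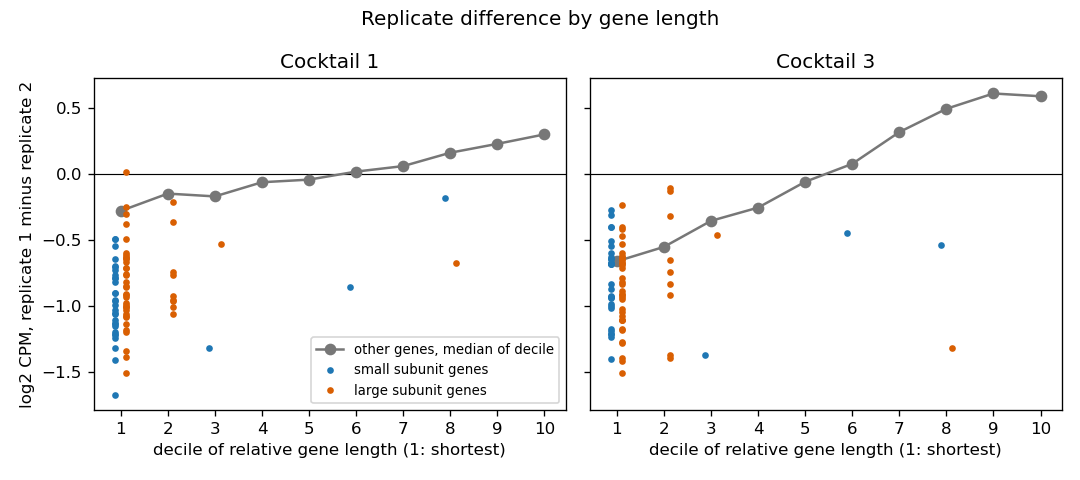
Difference in log2 CPM between replicate 1 and replicate 2 of Cocktail 1 (left) and Cocktail 3 (right) by decile of relative gene length, shortest first; the grey line joins the medians of the other genes, and points are small subunit (blue) and large subunit (orange) genes. In the shortest decile the grey line stands at -0.28 in Cocktail 1, with most ribosomal protein genes under it, and at -0.66 in Cocktail 3, where they spread around and under it.

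Other measures moved with the same libraries. Reads of mitochondrially encoded genes made up 8.94% and 12.7% of gene counts in replicates 1 and 2 of Cocktail 1, and 8.88% and 14.1% in Cocktail 3, against 10.5% and 10.5% in the control. Marker lists differed more between the replicates of Cocktail 1, with medians (replicate 1 minus replicate 2, log2) of -3.40 for the enveloping layer, -4.22 for the yolk syncytial layer, -5.36 for the blastoderm and 0.51 for the oocyte genes. In Cocktail 3 these were 0.03, -0.61, -0.15 and -0.39. Unmapped reads were 22.2% and 24.7% in Cocktail 1 and 27.07% and 26.7% in Cocktail 3. The part of these measures in the replicate differences was not tested.

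The pathways that build and regulate ribosomes were read from 4 gene lists in the mean of the cocktails against the control, where 13.6% of all genes were called lower and 15.1% higher. Of 82 ribosome biogenesis genes, 32 were lower and 2 higher, with a median log2 fold change of -0.35. The largest changes were those of gnl3 (nucleostemin), with 10.0 to 38.0 CPM in the cocktails against 103 and 102 CPM in the control (-2.23 ± 0.25, edgeR adjusted p = 1.16e-06), and nop2, an rRNA methyltransferase, with 7.40 to 26.5 CPM against 56.2 and 67.2 CPM (-1.99 ± 0.24, edgeR adjusted p = 3.55e-06). The groups did not overlap for either gene. Without control replicate 1 or 2, fewer genes of this list were called in each direction. Over all genes tested, fewer were called lower in these fits as well. Between the replicates of Cocktails 1 and 3 this list differed by -0.20 and -0.20, less than the ribosomal protein genes.

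Of 24 tested elongation factors and other TOP mRNAs, 8 were lower and 3 higher, with a median of -0.30. The largest changes were those of the elongation factor genes eef2a.1 (-1.90 ± 0.29, edgeR adjusted p = 5.12e-05) and eef1a1l1 (-1.13 ± 0.18, edgeR adjusted p = 6.98e-05). For eef1a1l1 the cocktails had 376 to 1273 CPM and the control 1886 and 1975 CPM, with no overlap. Of the 3 higher genes, eef1g (0.47 ± 0.15), eef1b2 (0.65 ± 0.19) and eef1db (0.91 ± 0.28), all are subunits of the factor that recharges eEF1A and were named after their values were seen; 3 of 24 is near the share of all genes called higher. The nucleolar gene npm1a counts in this list and in that for biogenesis. Between the replicates of Cocktails 1 and 3 this list differed by medians of -0.64 and -0.34, in the direction of the ribosomal protein genes. In replicate 1, 22 and 17 of the 24 genes were lower, where 49.6% and 49.7% of all genes were. Fewer genes of this list were called in each direction without control replicate 1 or 2, where fewer of all genes were called lower as well.

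Of 24 tested genes of mTORC1, S6 kinase and LARP1, 5 were lower and 3 higher, with a median of -0.15, which is near the background in both directions. The largest changes were upward, in eif4ebp2, a repressor of cap-dependent translation (1.63 ± 0.18, edgeR adjusted p = 9.56e-07), and in rptor, the mTORC1 subunit Raptor (1.51 ± 0.56, edgeR adjusted p = 0.0484). For eif4ebp2 the cocktails had 177 to 384 CPM against 85.9 and 83.7 CPM in the control. The level of rptor was low, with 4.48 to 18.9 CPM in the cocktails against 2.30 and 5.42 CPM in the control, and its groups overlapped. Fewer genes of this list were called lower without control replicate 1 or 2, and more without replicate 1 of Cocktail 1 or of Cocktail 3. The share of all genes called lower moved in the same directions. By limma on log2(TPM + 1) 0 were called lower, where 6.09% of all genes were. Of 13 tested genes of the Myc family, 0 were lower and 3 higher, with a median of 0.31, led by myclb (2.00 ± 0.24, edgeR adjusted p = 2.73e-06) and mxd3 (1.72 ± 0.23, edgeR adjusted p = 1.20e-05). The third was mxi1 (1.11 ± 0.17, edgeR adjusted p = 5.10e-05), named after its values were seen. The list also holds genes other than the myc genes themselves, such as max, and mxd3 and mxi1 are among these. The genes with the highest CPM in the control, mycla (-0.31 ± 0.13) and mych (-1.11 ± 0.59), were not called and were named after their values were seen. The list summed to 1411 to 1891 CPM in the cocktails and 1775 and 1912 CPM in the control, so the list as a whole was not raised. DESeq2 called 1 lower, and the lower count was 2 without either library of Cocktail 1 and 1 without Cocktail 3 replicate 1.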

How the data were processed

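Total RNA of whole embryos was made into libraries with the Nextera XT kit, per the labels' protocols. Its reads carry no strand, and overlapping genes on opposite strands cannot be told apart. Of the 2 tables per library, 1 holds raw counts of reads per gene deposited by the authors. The other, deposited by the authors, holds TPM, a unit inferred from the values. The submitters' processing notes name bcl2fastq 2.20 and danRer11; aligner, counter and annotation: not given in the sources used here. The TPM appear to hold reads that the counts leave out, since 94 genes had at most 5 summed counts and a mean TPM over 10.

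Rows that name no gene (29.8% to 55.5% of reads in the cocktails, 22.6% and 23.1% in the control) were left out. Groups came from the sample titles. Library scaling was TMM, and counts were tested with edgeR 4.0.16 (R 4.3.3; quasi-likelihood F test, robust, a coefficient per group, 18 libraries, filter at a minimum count of 10, 14514 genes, common biological coefficient of variation 0.280), after a check on simulated counts. CPM are counts scaled to a common total of gene counts times the TMM factor (0.955 to 1.10 in the cocktails, 0.895 and 0.904 in the control); log2 CPM used the same totals and a prior count of 2. Shares of gene counts use no TMM factor. Relative length was the ratio of counts to TPM where a library had over 20 counts, which understates length for genes with many shared reads.

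The alternatives tried were a replicate block, RLE size factors, DESeq2 1.42.0, no filter, limma 3.58.1 on log2(TPM + 1) for 19867 genes with at least 1 TPM in 2 libraries, in which fold changes of low genes are understated, a 2-fold minimum, only the 2 groups compared, and libraries left out; after seeing the data, Cocktails 1 and 3 both left out and a lowess trend on length (span 0.3, 13228 genes) removed. Where a group keeps 1 library, it is assumed to vary like the others. Replicate numbers did not pair the samples. The members, lists and naming rule were chosen with earlier results of these data known. The rule took per subunit the 6 called genes with the largest change and the 2 nearest 0, the 3 highest and 2 lowest in the control, the 3 widest and the closest between replicates in Cocktails 1 and 3, the largest call per cocktail, the 5 lowest adjusted p among cocktails, all paralogue pairs, and 2 genes per list.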

Additional observations from a re-analysis of the deposited data

Results flagged for a closer look

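Reads that mapped nowhere, which the comparisons do not use, reached 47.3% in Cocktail 8 replicate 1, and all cocktail libraries lay above both controls (10.1% and 10.8%).

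In 5 genes the libraries of a cocktail lay above both controls while those of another lay below both. The share of all genes tested that did so was not counted. This is a description with no test of that pair, and none of the 5 genes differed among all 8 cocktails by the F test of edgeR. The large subunit gene rpl22 averaged 29.6 CPM in Cocktail 7 and 16.8 CPM in Cocktail 8, against 20.04 and 25.9 CPM in the control (edgeR adjusted p among cocktails = 0.712). Its paralogue rpl22l1 averaged 16.1 CPM in Cocktail 1 and 6.57 CPM in Cocktail 6, against 9.68 and 11.1 CPM in the control (edgeR adjusted p = 0.616). For rpl7l1 the means were 224 CPM in Cocktail 8 and 179 CPM in Cocktail 2, against 211 and 217 CPM in the control (edgeR adjusted p = 0.838). For rpl4 they were 282 CPM in Cocktail 7 and 241 CPM in Cocktail 8, against 253 and 266 CPM in the control (edgeR adjusted p = 0.866). For rps26, near the mRNA exit, they were 23.0 CPM in Cocktail 7 and 11.8 CPM in Cocktail 4, against 19.6 and 16.9 CPM in the control (edgeR adjusted p = 0.866).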

How the results depend on the processing

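The counts below are of ribosomal protein genes called lower against the control, for the mean of the cocktails unless a cocktail is named. For that mean the share of all genes called lower moved as well, with 6.09% by limma on log2(TPM + 1) and 20.4% with the length trend removed. It was 16.1% without Cocktail 1, 18.1% without Cocktails 1 and 3, and 13.3% with the replicate block. At 2-fold or more it was not taken. For single cocktails under these settings that share was not taken, so the moves cannot be read as particular to ribosomal protein genes. DESeq2 gave 8, 4, 3, 19, 10, 3 and 4 in Cocktails 1, 2, 3, 4, 5, 6 and 8, and RLE size factors 3, 19 and 8 in Cocktails 3, 4 and 5. With no filter there were 2, 9, 1 and 4 in Cocktails 3, 5, 6 and 8, and limma on log2(TPM + 1) gave 2 and 7 in Cocktails 3 and 4. At 2-fold or more there was 1, and 1, 6 and 3 in Cocktails 2, 4 and 5. Fits of only the 2 groups compared gave 1, 22, 44, 36, 18, 4 and 12 in Cocktails 1, 2, 4, 5, 6, 7 and 8. Without Cocktail 1 there were 20, and 5, 5, 22, 13, 4, 1 and 6 in Cocktails 2 to 8; without Cocktail 3, 8, 4, 19, 10, 3 and 4 in Cocktails 1, 2, 4, 5, 6 and 8. Without both there were 35, and 13, 33, 30, 10, 4 and 20 in Cocktails 2, 4, 5, 6, 7 and 8, with 2 genes differing among cocktails. With the length trend removed there were 24, and 16, 4, 12, 18, 15, 4, 2 and 13 in Cocktails 1 to 8. Replicate numbers did not pair the samples (correlations of -0.124 to 0.125 over 36 pairs of groups, 1 over 0.1), and the replicate block gave 9, and 1 in Cocktail 2.

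Without 1 library in turn the count was 1 to 25, and 1 to 27, 0 to 5, 1 to 9, 1 to 21, 0 to 13, 0 to 4, 0 to 1 and 0 to 6 in Cocktails 1 to 8, with 0 to 1 higher in Cocktail 3 and 0 to 1 differing among cocktails. Biogenesis counts then ran from 12 to 36 lower and 1 to 2 higher, TOP 4 to 9 and 0 to 3, mTORC1 0 to 8 lower and Myc 0 to 2 lower. The share of all genes called lower in the mean of the cocktails moved in these fits as well. In limma on TPM, biogenesis had 16 lower and 5 higher, and mTORC1 0 lower, where 6.09% of all genes were lower. The mTORC1 list had 8 and 10 lower, and Myc 2 and 1, without Cocktails 1 and 3 and with the length trend removed. Myc had 2 lower without Cocktail 1 and 1 by DESeq2, RLE size factors or no filter.

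The replicate difference in Cocktail 3 was -0.23 (small) and -0.25 (large) with the length trend removed, and -0.46 (large) on log2(TPM + 1). The small subunit median in the control was 151 and 160 TPM in single libraries.

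Signs near 0 turned. By DESeq2, RLE size factors and no filter, rpl19 was at -0.046, -0.046 and -0.0079, and rpl24 at -0.040, -0.040 and -0.0016; rps27.2 was at -0.035 by the first and by RLE size factors. Without Cocktail 1, without Cocktail 3 and without both, rpl19 was at -0.0020, -0.025 and -0.062 and rpl24 at -0.047, -0.044 and -0.14, and rps27.2 was at -0.011 without Cocktail 1 and -0.047 without both. With the length trend removed rpl19 was at -0.028 and rpl29 at 0.066. By limma on TPM, rpl29 was at 0.074, rpl37 (ENSDARG00000076360) at 0.021, rpl7l1 at 0.12 and rps25 at 0.068. Without 1 library in turn the log2 fold change ran from -0.043 to 0.074 for rpl19, -0.18 to 0.25 for rpl24, -0.12 to 0.20 for rps27.2, -0.045 to 0.038 for rpl7l1, -0.13 to 0.070 for rpl22l1, -0.29 to 0.081 for rpl22, -0.36 to 0.14 for rpl29, -0.27 to 0.016 for rpl37 (ENSDARG00000076360) and -0.26 to 0.043 for rps25. The cause of these turns was not tested. With 10 counts at the lowest, single genes carry wide counting error.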

Other observations

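Some genes with ribosomal names stand outside the rule. The best measured is rps27l, a paralogue of the rps27 genes, with 8.65 to 219 CPM in the cocktails and a median of 144, against 363 and 361 CPM in the control. All cocktail libraries lay below both controls, yet edgeR did not call it (log2 fold change -1.49 ± 0.61, adjusted p = 0.0978). Its replicates in Cocktail 1 differed by -4.30 in log2 CPM and those in Cocktail 3 by -1.59, which is wider than for any of the 80 genes. The gene rplp2l had 13.4 to 37.7 CPM in the cocktails against 34.6 and 28.6 CPM in the control (edgeR adjusted p = 0.237).

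The gene rpl26 had 1 count over all libraries but was listed at 88.4 to 178 TPM in the cocktails and at 144 and 121 TPM in the control. Its TPM in Cocktail 1 was 88.4 and 130, and in Cocktail 3 it was 149 and 178, lower in replicate 1 in both.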
